A study of Homo sapiens with 17 samples.

Results

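The promyelocyte granule genes examined here are 10 genes chosen by name: MPO, PRTN3, ELANE, AZU1, CTSG, LYZ, RNASE2, SRGN, MS4A3 and PLAC8. Each symbol matched 1 of the 58278 gene identifiers in the count files, and all 10 passed the filter on low counts in every fit. They were read in 17 RNA sequencing libraries of MOLM13, an established acute myeloid leukaemia line whose driver is the MLL-AF9 fusion, so every group, controls included, carries that fusion. In a first experiment 3 libraries came from cells with a CRISPR guide that targets no gene (NT), 3 from a HOXA9 knockout (HOXA9_KO) and 3 from a SAFB knockout (SAFB_KO). In a second experiment 4 libraries came from non-targeting controls (NT_MEIS1ex) and 4 from a MEIS1 knockout (MEIS1_KO). Both homeobox factors, HOXA9 and MEIS1, are activated by MLL fusions, while SAFB belongs to the nuclear matrix. The series' title speaks of a repressive complex of HOXA9 with SAFB. All results are from this 1 cell line, the labels do not say whether the knockout cells were clones or pools, how long after editing they were taken, or whether libraries of a group are separate cultures, so that p-values reflect only how the deposited libraries vary, which may be technical variation.

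Promyelocytes, the granulocyte precursors of the bone marrow, make the primary or azurophil granules, in which antimicrobial proteins are stored for release into the phagosome. Myeloperoxidase (MPO) is the haem enzyme that makes hypochlorous acid; proteinase 3 (PRTN3), neutrophil elastase (ELANE) and cathepsin G (CTSG) are serine proteases, and azurocidin (AZU1) is their relative without protease activity. Lysozyme (LYZ) cuts bacterial cell walls and is also made in large amounts by monocytes, RNASE2 is a secreted ribonuclease of eosinophils and monocytes, and serglycin (SRGN) is the proteoglycan on which granule cargo is packed. MS4A3 is a membrane protein of granulocyte-monocyte progenitors, and PLAC8 is a small cysteine-rich protein of myeloid cells. C/EBP factors, PU.1, RUNX1 and MYB are known activators of several of these genes.

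Annotated promoters are shown for 4 genes that did not move together in the knockouts: PRTN3 and MS4A3, which rose, AZU1, the neighbour of PRTN3, and CTSG, which fell. Each is the 250 bases before a RefSeq start site on GRCh38.p14, 5′ to 3′ on the gene's strand. Windows were found for 6 of the 10 genes: these 4, PLAC8 and RNASE2. Capitals mark the letters TTNNGNAA (C/EBP) and GGAAGT (PU.1) on either strand; no TGNGGT (RUNX) was in these stretches.
PRTN3 promoter, chr19:840749-840998, + strand: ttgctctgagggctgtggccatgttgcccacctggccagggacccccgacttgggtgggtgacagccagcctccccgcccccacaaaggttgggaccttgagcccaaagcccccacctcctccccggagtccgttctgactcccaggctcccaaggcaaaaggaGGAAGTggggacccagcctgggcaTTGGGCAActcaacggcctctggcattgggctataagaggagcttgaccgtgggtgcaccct
AZU1 promoter, chr19:827587-827836, + strand: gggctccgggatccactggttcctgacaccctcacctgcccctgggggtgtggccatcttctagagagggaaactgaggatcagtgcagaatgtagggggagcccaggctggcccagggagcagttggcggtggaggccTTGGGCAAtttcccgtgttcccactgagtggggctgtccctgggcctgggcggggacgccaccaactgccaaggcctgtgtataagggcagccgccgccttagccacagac
CTSG promoter, chr14:24576251-24576500, - strand: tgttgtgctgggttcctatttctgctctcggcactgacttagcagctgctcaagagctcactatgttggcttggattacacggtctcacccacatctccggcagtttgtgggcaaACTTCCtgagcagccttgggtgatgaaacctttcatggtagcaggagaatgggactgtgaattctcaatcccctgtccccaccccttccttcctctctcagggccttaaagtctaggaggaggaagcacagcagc
MS4A3 promoter, chr11:60056415-60056664, + strand: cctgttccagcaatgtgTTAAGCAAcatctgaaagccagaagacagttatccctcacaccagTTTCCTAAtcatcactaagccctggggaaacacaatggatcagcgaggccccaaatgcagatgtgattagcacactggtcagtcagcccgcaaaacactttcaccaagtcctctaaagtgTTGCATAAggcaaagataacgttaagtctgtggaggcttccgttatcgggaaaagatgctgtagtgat
Position 0 is the start base. PRTN3 held PU.1 letters at -86 and C/EBP letters at -62, AZU1 held C/EBP letters at -111, CTSG held PU.1 letters at -135 and MS4A3 held C/EBP letters at -233, -188 and -68. Among the 35116 windows of the table, 33.2% held the C/EBP letters before the start, 19.5% the PU.1 letters and 37.7% the RUNX letters. The letters TGACAG (MEIS) were found before the start in PRTN3 alone of the 4, at -191 (13% of all windows), and TGATNNAT (HOX and PBX) in MS4A3 alone, at -154 (6.47%). AACNG (MYB) was in all 4, as in 70.6% of all windows, and overlapped a C/EBP match in MS4A3 at -191. These are matches of letters and not measured binding.

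Counts in genes ranged from 30737884 to 67842104 per library in the first experiment and from 23264176 to 33232459 in the second. The lowest count of a member in any library was 268 (MS4A3). Each targeted transcript was lower in its own knockout: HOXA9 changed by -0.93 ± 0.05 (log2, SE), SAFB by -0.89 ± 0.07 and MEIS1 by -1.54 ± 0.07. In HOXA9_KO MEIS1 changed by -1.54 ± 0.06. Mitochondrial rRNA genes took 31.9% to 35.5% of the counts in HOXA9_KO, above the 22.5% to 28.4% of NT and the 24.9% to 27.0% of SAFB_KO, and at most 0.00941% in the second experiment. Reads outside genes were lower in both knockouts of the first experiment, 9.02% ± 0.325 (SD, n = 3) for HOXA9_KO and 11.6% ± 1.05 for SAFB_KO, against 17.04% ± 0.957 for NT. They were 8.25% ± 0.685 (SD, n = 4) for MEIS1_KO and 7.30% ± 0.993 for NT_MEIS1ex. The 29 interferon response genes summed to 2384.5 to 3210 CPM in NT against 573 to 606 in HOXA9_KO and 776 to 849 in SAFB_KO. All 29 fell in both knockouts, which share the NT libraries, and in MEIS1_KO 6 rose and none fell. The sum was 638 to 848 CPM in NT_MEIS1ex and 911 to 1239 CPM in MEIS1_KO, which were scaled apart. NT thus stood above every other group, the other control group included. Whether the knockouts or the NT libraries account for the difference was not tested. Markers of the labelled myeloid type were present: monocyte and macrophage markers summed to 474 to 480 CPM in NT and granulocyte-monocyte progenitor markers to 2520 to 2642 CPM. Of the 20 progenitor markers 14 had a mean of at least 1 CPM in NT, and CSF2RA, CEACAM6 and CEACAM8 had no count. The 12 neutrophil markers summed to 159 to 175 CPM in NT, with 4 at 1 CPM or more and MMP8 among those without a count. For the 17 erythroid and megakaryocyte markers the sum was 14.25 to 15.8 CPM, with 3 at 1 CPM or more and no count for HBA1. The 16 lymphoid markers summed to 109.8 to 123 CPM, with 5 at 1 CPM or more, CD4 at 83.7 CPM and no count for CD3E. In bulk RNA, more cells of a type and more RNA per cell cannot be told apart.

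In the NT libraries the level per length, CPM per kilobase of exon with all 17 libraries scaled together, ran over a wide range among the 10 genes. LYZ was highest at 2510 ± 27.7 (SD, n = 3), followed by SRGN at 1430 ± 20.8, PRTN3 at 639 ± 44.3 and RNASE2 at 387 ± 27.2. ELANE at 102 ± 8.18 and AZU1 at 99.6 ± 3.79 overlapped. PLAC8 at 65.3 ± 2.05 and CTSG at 17.9 ± 1.02 came next, and MPO at 5.09 ± 0.462 and MS4A3 at 4.65 ± 0.346 were lowest and overlapped. The order showed abundant lysozyme and serglycin mRNA beside little myeloperoxidase mRNA.

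The control cells of the second experiment carried more protease mRNA. On the same scale per length, NT_MEIS1ex held ELANE at 647 ± 32.0 (SD, n = 4), AZU1 at 438 ± 8.80, CTSG at 82.9 ± 7.65 and PRTN3 at 1760 ± 165 (all n = 4), above every NT library. MPO at 10.1 ± 1.78 and PLAC8 at 104 ± 9.97 were also above NT. SRGN at 1451 ± 174, RNASE2 at 346 ± 22.9 and MS4A3 at 5.18 ± 1.04 overlapped NT, and LYZ at 1935 ± 326 was below it. In NT_MEIS1ex LYZ, PRTN3 and SRGN overlapped in the order of levels, and ELANE and AZU1 stood above RNASE2. Experiment and control cells cannot be told apart here, so no test was made and each knockout is read only against its own controls.

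**Figure D1:**
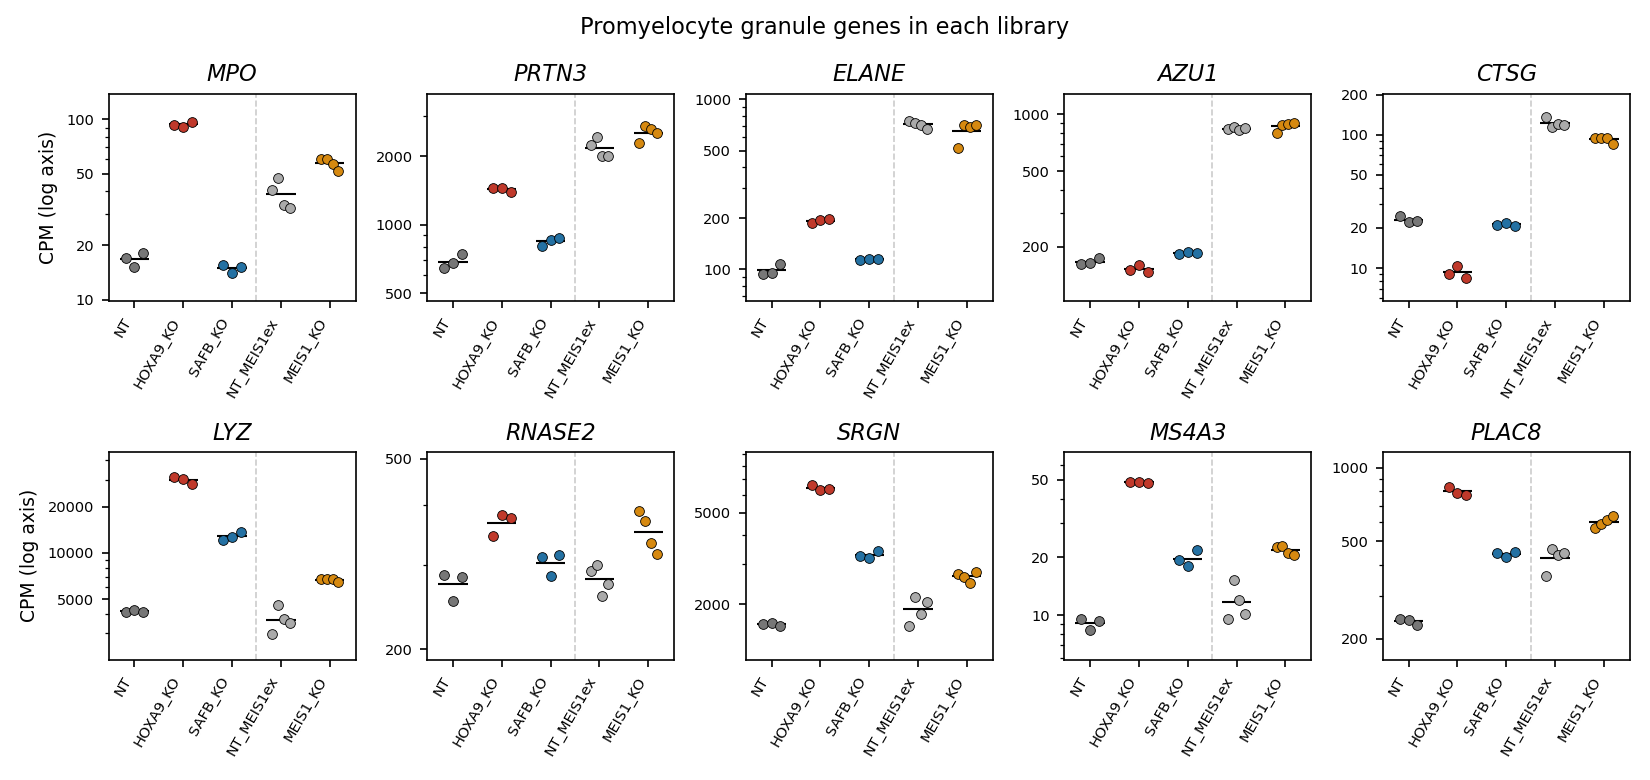
CPM of each gene (y, log axis) in each library (points) by group (x), with the group mean as a line; the dashed line divides the 2 experiments, which were scaled separately. The HOXA9_KO libraries lie above NT for 8 genes and below it for AZU1 and CTSG, and ELANE, AZU1 and CTSG lie several-fold higher in both groups of the MEIS1 experiment.

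Loss of HOXA9 raised 8 of the 10 genes and lowered 2. Calls used edgeR's quasi-likelihood F test with a limit of 0.05 on the Benjamini-Hochberg adjusted p over all 18876 tested genes, and rises and falls below refer to calls. Over all tested genes 27.6% rose and 29.9% fell, so a call by itself was common in this comparison. The changes reached 2-fold for 7 of the 10 genes against 15.4% of tested genes, and the groups did not overlap for all 10 against 62.6%. The median change of the 10 genes was 1.41 on the log2 scale and that of all tested genes -0.07. With libraries scaled on nuclear protein-coding genes instead, 2861 genes rose and 9293 fell, against 5207 and 5640, and the median of all tested genes was -0.32; all 10 members kept their direction and call, with AZU1 at -0.37 and RNASE2 at 0.17.

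MPO stood at 17.04, 15.2 and 18.2 CPM in the NT libraries against 93.5, 90.2 and 97.1 CPM in HOXA9_KO. Every knockout library was several-fold above every control, a log2 rise of 2.48 ± 0.06 (adjusted p 1.53e-37). Its level per length nevertheless remained among the lower ones, at 28.8 ± 1.07 (SD, n = 3).

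Among the serine protease genes the 4 members diverged. PRTN3 was at 643, 677 and 742 CPM in the NT libraries against 1447, 1454.5 and 1389.5 CPM in HOXA9_KO, a rise of 1.06 ± 0.04 (adjusted p 5.65e-15). ELANE went from 93.6, 94.6 and 108 CPM to 186, 194 and 198 CPM, a rise of 0.97 ± 0.04 (adjusted p 6.6e-24). These proteases, encoded side by side, thus about doubled, and neither overlapped its controls. AZU1, the gene next to PRTN3, was at 161.5, 164 and 174 CPM in the NT libraries against 151, 161 and 147 CPM in HOXA9_KO. Its fall of 0.12 ± 0.04 (adjusted p 0.00337) was small, close to the median of all tested genes, and the nearest libraries of both groups differed by less than 1 CPM. CTSG was at 24.5, 22.3 and 22.5 CPM in the NT libraries against 8.95, 10.5 and 8.43 CPM in HOXA9_KO. It fell by 1.32 ± 0.08 (adjusted p 8.18e-21), the only member to fall by 2-fold or more in this comparison.

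LYZ, the most abundant member, was at 4099, 4216 and 4141 CPM in the NT libraries against 30985, 30051 and 28045 CPM in HOXA9_KO. This was the largest rise among the 10 genes, 2.84 ± 0.05 (adjusted p 1.12e-15). LYZ made up 56.9% ± 0.521 (SD, n = 3) of the members' summed CPM in NT and 75.8% ± 0.691 in HOXA9_KO. A part of its exon sequence, 34.0%, lies opposite another annotated gene; the kit keeps strand, but which strand setting the counting used is not stated in these sources. RNASE2 was at 286, 253 and 283 CPM in the NT libraries against 346, 381 and 375 CPM in HOXA9_KO, a smaller rise of 0.42 ± 0.06 (adjusted p 5.34e-05).

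SRGN was at 1644, 1649.5 and 1612 CPM in the NT libraries against 6585, 6265 and 6322 CPM in HOXA9_KO (log2 rise 1.97 ± 0.03, adjusted p 4.77e-45). MS4A3 was at 9.60, 8.39 and 9.41 CPM in the NT libraries against 49.0, 48.6 and 48.2 CPM in HOXA9_KO (rise 2.41 ± 0.07, adjusted p 1.25e-33). PLAC8 was at 241, 239 and 228 CPM in the NT libraries against 834, 789 and 776 CPM in HOXA9_KO (rise 1.76 ± 0.03, adjusted p 1.77e-41). The granule proteoglycan and both of the last genes had larger log2 changes than any serine protease gene, and none overlapped its controls. Summed over the 10 genes, the level went from 7299 ± 68.4 to 39179 ± 1656 CPM (SD, n = 3). The interferon genes, for which NT stood above every other group, the lower share of reads outside genes and the higher share of mitochondrial rRNA moved with these changes. Their part in the changes was not tested. The call of AZU1 was lost without NT replicate 3 (adjusted p 0.0536), without HOXA9_KO replicate 3 (0.0616) and with DESeq2 (0.0691).

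**Figure D2:**
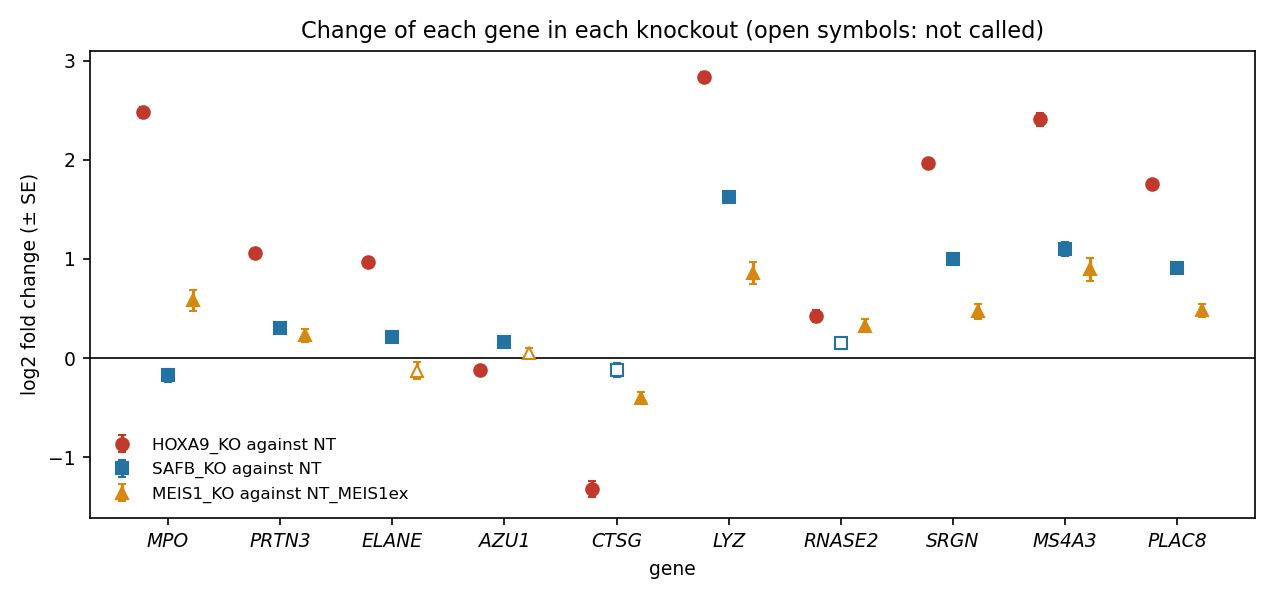
Log2 fold change with its SE (y) of each gene (x) in each knockout against its own controls; filled symbols were called at an adjusted p under 0.05. HOXA9_KO spans -1.32 (CTSG) to 2.84 (LYZ), SAFB_KO -0.17 (MPO) to 1.63 (LYZ) and MEIS1_KO -0.40 (CTSG) to 0.90 (MS4A3).

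Loss of SAFB raised 7 of the 10 genes, lowered MPO slightly and left CTSG and RNASE2 uncalled. Over all tested genes 20.2% rose and 15.3% fell. A change of at least 2-fold was reached by 2 members, LYZ and MS4A3, against 4.63% of tested genes, and the groups did not overlap for 8 of the 10 against 46.3%. The median over the 10 genes was 0.26 and over all tested genes -0.02. With the nuclear protein-coding scaling 1712 genes rose and 5535 fell, against 3812 and 2886 (median -0.16), and ELANE (0.07, adjusted p 0.16) and AZU1 (0.02, adjusted p 0.669) were no longer called while CTSG was (-0.26, adjusted p 0.00218). This comparison uses the same NT libraries as that of HOXA9_KO.

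The rises were largest outside the peroxidase and the proteases. LYZ was at 12090, 12612 and 13758 CPM in SAFB_KO, above NT by 1.63 ± 0.05 (adjusted p 2.06e-12). MS4A3 was at 19.23, 18.001 and 21.7 CPM, a rise of 1.10 ± 0.07 (adjusted p 4.03e-18). SRGN was at 3227, 3174 and 3408 CPM, a rise of 0.9996 ± 0.03, and PLAC8 at 446, 434 and 451 CPM, a rise of 0.91 ± 0.03. All SAFB_KO libraries of these 4 genes lay above all NT libraries. RNASE2 was at 312, 284 and 315 CPM, which overlapped NT (0.15 ± 0.06, adjusted p 0.0682). It was called as higher under 8 of the alternatives, among them without NT replicate 1 (adjusted p 0.0266), without SAFB_KO replicate 2 (0.00213), with limma-voom (0.015) and with DESeq2 (0.00675). Under the nuclear protein-coding scaling RNASE2 was at 0.008 and not called (adjusted p 0.931).

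Protease changes in SAFB_KO were small. PRTN3 was at 809.7, 855 and 871 CPM (rise 0.30 ± 0.04, adjusted p 6.94e-06) and ELANE at 113.6, 114.8 and 114.5 CPM (rise 0.21 ± 0.04, adjusted p 4.65e-05). AZU1 was at 184, 189 and 184 CPM, a rise of 0.16 ± 0.04 (adjusted p 0.000282). These 3 neighbours lay above their controls in every library. CTSG was at 21.2, 21.7 and 20.8 CPM, below the NT libraries but not called (-0.12 ± 0.07, adjusted p 0.163). MPO was at 15.65, 14.1 and 15.1 CPM, the highest of which lay above the lowest NT library. Its fall of 0.17 ± 0.06 (adjusted p 0.0262) was not called without NT replicate 1 (adjusted p 0.0672), NT replicate 3 (0.182) or SAFB_KO replicate 2 (0.191), nor by limma-voom (0.0758) or DESeq2 (0.065).

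Set directly against each other, the knockouts differed at all 10 genes: 8 were higher and 2 lower in HOXA9_KO than in SAFB_KO, and none overlapped, against 20.1% higher, 20.5% lower and 48.3% without overlap over all tested genes. NT levels do not enter this log2 difference, but the NT libraries were in the fit that gave its SE and adjusted p. The other scaling gave 2449 higher and 5845 lower genes against 3791 and 3877, and RNASE2 was then not called (0.16, adjusted p 0.0503). MPO, which rose in HOXA9_KO and fell slightly in SAFB_KO, differed most, by 2.65 ± 0.06 (adjusted p 5.16e-37). MS4A3 differed by 1.31 ± 0.06, LYZ by 1.21 ± 0.05, SRGN by 0.97 ± 0.03 and PLAC8 by 0.85 ± 0.03. PRTN3 and ELANE were higher in HOXA9_KO by 0.76 ± 0.04 and 0.75 ± 0.04, and RNASE2 by 0.28 ± 0.06 (adjusted p 0.00228). CTSG was lower in HOXA9_KO by -1.20 ± 0.08 (adjusted p 2.87e-18) and AZU1 by -0.28 ± 0.04 (adjusted p 5.77e-09).

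Loss of MEIS1 raised 7 of the 10 genes, lowered CTSG and left ELANE and AZU1 uncalled, with smaller changes. Over the 15744 genes tested in this experiment, 4.97% rose and 3.84% fell. None of the 10 genes reached 2-fold, which 0.349% of tested genes did, and the groups did not overlap for 7 of the 10 against 15.7%. The median over the 10 genes was 0.40 and over all tested genes 0.00. With the nuclear protein-coding scaling 979 genes rose and 450 fell, against 783 and 604.

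MS4A3 rose most, from 9.57, 15.1, 11.9 and 10.1 CPM in NT_MEIS1ex to 22.5, 22.8, 20.9 and 20.5 CPM in MEIS1_KO (0.90 ± 0.11, adjusted p 0.000203). LYZ was at 2946, 4549.5, 3734 and 3468.5 CPM in the controls and at 6722, 6789, 6727 and 6417 CPM in the knockout (0.86 ± 0.11, adjusted p 0.00151). In both genes the controls were spread more widely than the knockout libraries, and the lowest knockout library was above the highest control. SRGN was at 1600.3, 2147, 1819 and 2048 CPM and then at 2694, 2639, 2485 and 2755 CPM (0.47 ± 0.08, adjusted p 0.00137). PLAC8 was at 363, 466, 441 and 449 CPM and then at 569, 588, 612 and 634 CPM (0.48 ± 0.07, adjusted p 0.000236). RNASE2 was at 291, 299, 258 and 274 CPM and then at 389, 370.5, 333 and 316 CPM (0.33 ± 0.06, adjusted p 0.00371). None of these overlapped.

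MPO was at 40.7, 47.2, 33.7 and 32.1 CPM in the NT_MEIS1ex libraries against 60.5, 60.4, 56.9 and 52.0 CPM in MEIS1_KO, a rise of 0.58 ± 0.11 (adjusted p 0.00663) without overlap. CTSG was at 136, 114, 121 and 118 CPM in the controls and at 95.0, 95.1, 93.9 and 85.6 CPM in the knockout, a fall of 0.40 ± 0.06 (adjusted p 0.000304), also without overlap. The peroxidase and cathepsin G thus moved in opposite directions in this experiment too. PRTN3 was at 2245, 2431, 1996.5 and 1998 CPM and then at 2283, 2703, 2647 and 2528 CPM; the groups overlapped, and its rise of 0.23 ± 0.07 (adjusted p 0.0436) was no longer called when MEIS1_KO replicate 2, 3 or 4 or NT_MEIS1ex replicate 1, 3 or 4 was left out (adjusted p 0.0676 to 0.139). ELANE was at 752, 722, 711 and 675 CPM in the controls and at 519, 704, 684 and 711 CPM in the knockout (-0.13 ± 0.09, adjusted p 0.418). Replicate 1 of MEIS1_KO was low for ELANE and was also the lowest knockout library for PRTN3 and AZU1. Without it the difference of ELANE was -0.03 (adjusted p 0.81). AZU1 was at 837, 852, 822 and 844 CPM and then at 796, 882, 893 and 903 CPM (0.05 ± 0.05, adjusted p 0.565).

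Whether 2 knockout effects differed between experiments was tested in a fit of all 17 libraries. The rise in HOXA9_KO exceeded that in MEIS1_KO for 7 genes, the change was lower for CTSG, and AZU1 and RNASE2 were not called; over the 18836 genes tested the shares were 24.5% higher and 19.7% lower. The difference was 2.02 ± 0.13 for LYZ, 1.94 ± 0.14 for MPO, 1.55 ± 0.13 for MS4A3, 1.53 ± 0.09 for SRGN, 1.32 ± 0.08 for PLAC8, 1.13 ± 0.12 for ELANE and 0.87 ± 0.09 for PRTN3. For CTSG it was -0.87 ± 0.10 (adjusted p 3.84e-09), for AZU1 -0.13 ± 0.07 (adjusted p 0.109) and for RNASE2 0.14 ± 0.09 (adjusted p 0.246; -0.18 under the nuclear protein-coding scaling). That scaling gave 1867 higher and 7777 lower genes against 4618 and 3703. AZU1 was called as lower under it (-0.45, adjusted p 2.9e-07), with a minimum of 2 CPM (-0.23, adjusted p 0.00291) and without MEIS1_KO replicate 1 (-0.17, adjusted p 0.0319).

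SAFB_KO and MEIS1_KO differed less. In 4 genes the change was higher in SAFB_KO, against 12.4% of tested genes: LYZ by 0.77 ± 0.13, SRGN by 0.53 ± 0.09, PLAC8 by 0.43 ± 0.08 and CTSG by 0.29 ± 0.09 (adjusted p 0.0216). CTSG was not called in this test without NT replicate 2 (adjusted p 0.0588) or 3 (0.0507), with a minimum of 2 CPM (0.0926) or under the nuclear protein-coding scaling (0.12, adjusted p 0.386). MPO was lower in SAFB_KO by -0.75 ± 0.15 (adjusted p 0.00172), the only member called in that direction, against 8.49% of tested genes. The other 5 were not called: ELANE differed by 0.35 ± 0.12 (adjusted p 0.0564), MS4A3 by 0.21 ± 0.14, AZU1 by 0.12 ± 0.07, PRTN3 by 0.08 ± 0.09 and RNASE2 by -0.17 ± 0.09. ELANE was called without NT replicate 3 or without MEIS1_KO replicate 1, 2 or 4 (adjusted p 0.0111 to 0.0322), and by DESeq2 (0.00723) and limma-voom (0.019). Under the nuclear protein-coding scaling, which gave 612 higher and 3496 lower genes against 2330 and 1600, PRTN3 was at -0.09, AZU1 at -0.06 and RNASE2, then called, at -0.35 (adjusted p 0.0191). Knockout effects of the 2 experiments were measured against controls that differ in their protease levels, as given above, and the part of this in the differences was not tested.

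The make-up of the protease mRNA pool shifted in HOXA9_KO. Per length and as a share of the 4 genes, PRTN3 was 74.4% ± 0.519 (SD, n = 3) in NT and 81.7% ± 0.536 in HOXA9_KO, and AZU1 went from 11.6% ± 0.313 to 5.62% ± 0.170. CTSG went from 2.10% ± 0.230 to 0.441% ± 0.0417, while ELANE was at 11.9% ± 0.254 and 12.3% ± 0.541. In SAFB_KO the shares were 76.1% PRTN3, 11.5% ELANE, 10.8% AZU1 and 1.60% CTSG. NT_MEIS1ex had 60.03% PRTN3, 22.1% ELANE, 14.99% AZU1 and 2.84% CTSG, and MEIS1_KO 65.1%, 18.6%, 14.3% and 1.98%.

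Ratios within a library do not depend on how libraries are scaled. The ratio of PRTN3 to AZU1 per length was 6.42 ± 0.212 (SD, n = 3) in NT and 14.6 ± 0.464 in HOXA9_KO, without overlap. It was 7.08 ± 0.260 in SAFB_KO, without overlap with NT. In NT_MEIS1ex it was 4.02 ± 0.352 (SD, n = 4) and in MEIS1_KO 4.55 ± 0.179, with overlap. The log2 ratio of ELANE to AZU1 changed by 1.09 in HOXA9_KO and by -0.19 in MEIS1_KO, both without overlap. In SAFB_KO it changed by 0.05, with overlap. The ratio of MPO to CTSG went from 0.284 ± 0.0277 in NT to 3.97 ± 0.568 in HOXA9_KO, stayed at 0.274 ± 0.0190 in SAFB_KO, and went from 0.123 ± 0.0256 in NT_MEIS1ex to 0.242 ± 0.00656 in MEIS1_KO. With 3 libraries against 3, the exact two-sided permutation test cannot go below 0.1, the value it gave for each of these ratios in HOXA9_KO. For MPO to CTSG and for ELANE to AZU1 in MEIS1_KO the exact permutation p was 0.0286, the smallest that 4 against 4 allows. After adjustment over the 9 ratio comparisons it was 0.129 for each.

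**Figure D3:**
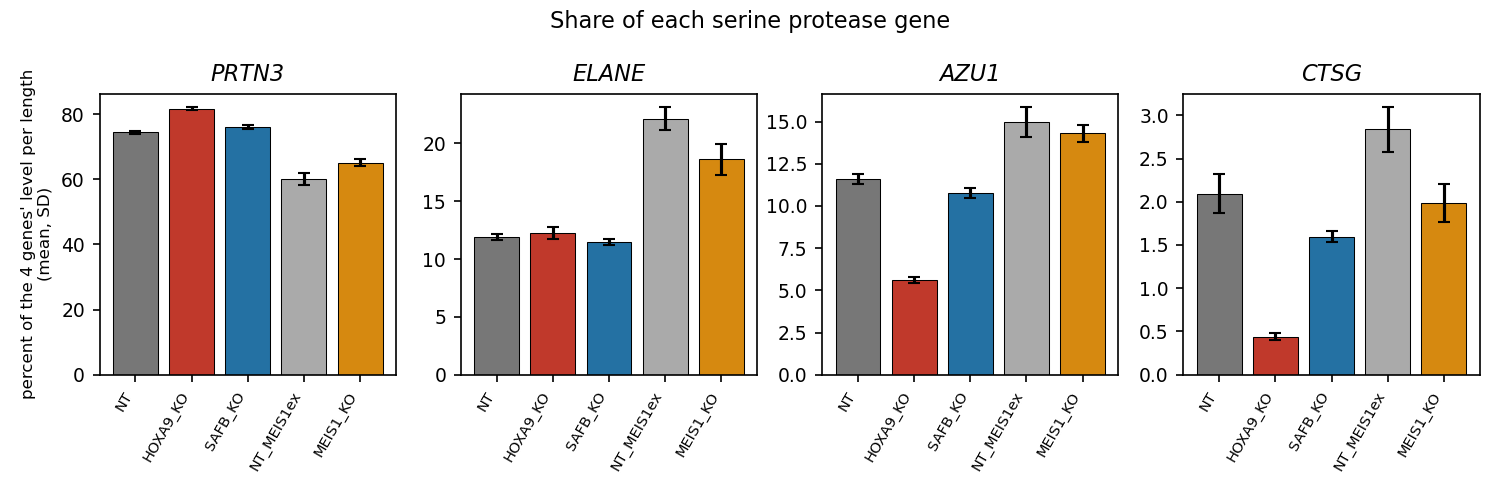
Share of each gene in the summed level per length of the 4 serine protease genes (y, percent, a panel and a scale for each gene; bars are means and error bars SDs over 3 or 4 libraries) by group (x). AZU1 and CTSG fall to 5.62% and 0.441% in HOXA9_KO, and ELANE takes 22.1% in NT_MEIS1ex against 11.9% in NT.

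Most other azurophil granule genes rose in HOXA9_KO. Of 23 tested genes of this list 20 rose and 2 fell (median 1.14). The lysosomal hydrolases FUCA1, a fucosidase, went from 23.02 to 155 CPM (2.75 ± 0.04) and CTSD, cathepsin D, from 33.3 to 152 CPM (2.19 ± 0.04). Of the exon sequence of CTSD, 41.7% is also covered by annotated genes on the same strand, and its effect on the counts was not tested. The acid phosphatase ACP3 rose by 2.84 ± 0.05. The 2 that fell, named after their values were seen, were PRSS57, a further serine protease of azurophil granules, from 105 to 37.4 CPM (-1.49 ± 0.06), and LAMP3, which was under 1 CPM in both groups. In SAFB_KO 20 of 23 rose, and PRSS57 and LAMP3 fell (median 0.46), with FUCA1 at 1.25 ± 0.04 and PRSS57 at -0.51 ± 0.06. In MEIS1_KO 9 of 22 rose and 1 fell (median 0.17), with the annexin ANXA1 at 0.88 ± 0.08 and PRSS57 at -0.37 ± 0.09 (adjusted p 0.0339). PRSS57 was thus lower in all 3 knockouts, as CTSG was in the values of all 3, but in SAFB_KO the value of CTSG was not called. Among all tested genes 27.6% rose and 29.9% fell in HOXA9_KO, and 20.2% and 15.3% in SAFB_KO. In MEIS1_KO the shares were 4.97% and 3.84%. Some counts of the lists that follow lie near these shares.

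Genes that process or inhibit granule proteases were mostly higher in HOXA9_KO and SAFB_KO. In HOXA9_KO 12 of 15 rose and 1 fell (median 0.93), in SAFB_KO 13 rose and 1 fell (0.50), and in MEIS1_KO 7 of 14 rose and 1 fell (0.18). SERPINB1, a cytosolic inhibitor of elastase, cathepsin G and proteinase 3, went from 64.4 to 165 CPM in HOXA9_KO (1.36 ± 0.04) and to 90.9 CPM in SAFB_KO (0.50 ± 0.04). SLPI, a secreted elastase inhibitor, rose by 0.93 ± 0.05 in HOXA9_KO and by 0.67 ± 0.07 in MEIS1_KO. CTSC, which activates the granule proteases and was singled out for that role, rose by 0.44 ± 0.03 in HOXA9_KO.

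Of the later specific and gelatinase granules, with LYZ left out, 11 of 16 genes rose and 3 fell in HOXA9_KO (median 1.34). CYBB, the core of the phagocyte oxidase, went from 59.9 to 392.1 CPM (2.71 ± 0.04), and CFP, properdin, from 3.18 to 39.0 CPM (3.64 ± 0.09). In SAFB_KO 9 of 16 rose and none fell (median 0.63), with CYBB at 1.20 ± 0.03, and in MEIS1_KO 6 of 13 rose and 1 fell (median 0.59), with CYBB at 0.74 ± 0.06. Eosinophil, basophil and mast cell granule genes were mixed in HOXA9_KO: 2 of 10 rose and 5 fell (median -1.12). Among those that fell, HDC (1.05 to 0.314 CPM), TPSAB1 (0.277 to 0.0532 CPM) and TPSB2 (0.476 to 0.131 CPM) were near the floor. EPX, the eosinophil peroxidase, went from 5.22 to 2.61 CPM (-0.99 ± 0.13), and GATA2 also fell. RNASE3, the close relative and neighbour of RNASE2, rose by 0.95 ± 0.07, and PRG2 rose from 8.80 to 10.8 CPM (0.29 ± 0.09), with overlap. In SAFB_KO 2 rose and 2 fell, among them PRG2, the eosinophil major basic protein, from 8.80 to 20.2 CPM (1.20 ± 0.09), and in MEIS1_KO 1 of 6 fell, the mast cell and progenitor factor GATA2 (-0.71 ± 0.08).

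Regulators of granule genes were mixed in direction. In HOXA9_KO 9 of 17 rose and 6 fell (median 0.11). SPI1, which encodes PU.1, went from 74.2 to 178 CPM (1.27 ± 0.04) and CEBPA from 73.2 to 138 CPM (0.92 ± 0.04). A part of CEBPA's exon sequence, 43.4%, lies opposite annotated genes. CEBPB went from 4.49 to 18.6 CPM (2.05 ± 0.10) and CEBPD from 10.8 to 35.5 CPM (1.71 ± 0.07), and GATA2 fell by 1.26 ± 0.07. Of the other activators named above, RUNX1 fell from 179 to 139 CPM (-0.36 ± 0.03) and MYB from 449 to 414 CPM (-0.11 ± 0.03). In SAFB_KO 6 rose and 2 fell, with SPI1 at 0.51 ± 0.04 and CEBPA at 0.35 ± 0.04. There RUNX1 fell (-0.15 ± 0.03) and MYB was not called (0.07 ± 0.03). In MEIS1_KO 2 rose and 2 fell. Genes of granule sorting and biogenesis, with SRGN left out, rose in 22 of 29 cases and fell in 4 in HOXA9_KO (median 0.44), among them NEU1, the lysosomal sialidase (1.44 ± 0.04), and CD63, a granule membrane tetraspanin (0.93 ± 0.03). They rose in 21 and fell in 2 in SAFB_KO (0.19) and rose in 3 of 30 in MEIS1_KO (0.04). Enzymes that build the glycosaminoglycan chains carried by SRGN rose in 13 of 25 cases and fell in 5 in HOXA9_KO (median 0.20), with the sulphotransferase NDST1 at 1.56 ± 0.06; 7 rose and 4 fell in SAFB_KO, and 2 of 26 fell in MEIS1_KO. Of 8 haem synthesis genes 5 rose and 3 fell in HOXA9_KO, with ALAS1, the first enzyme of the pathway, going from 97.9 to 189 CPM (0.95 ± 0.04).

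Most monocyte markers rose in all 3 knockouts, as LYZ, SRGN, MS4A3, PLAC8 and PRTN3 did. MPO, ELANE, AZU1, CTSG and RNASE2 were not called as higher in every knockout. All 13 tested markers rose in HOXA9_KO (median 1.96) and in SAFB_KO (1.10), and 9 of 11 rose in MEIS1_KO (0.67). The whole list of 16 summed to 1545 to 1569 CPM in HOXA9_KO, 985 to 998 in SAFB_KO, 464 to 562 in NT_MEIS1ex and 763 to 808 in MEIS1_KO. Progenitor markers rose in 12 of 16 cases and fell in 2 in HOXA9_KO (median 0.87), with CD38 at 2.51 ± 0.05 and FLT3, the progenitor receptor tyrosine kinase, at -1.07 ± 0.03. The 12 neutrophil markers summed to 159 to 175 CPM in NT and 311 to 321 CPM in HOXA9_KO, most of it CSF3R (153 and 282 CPM), and MMP8 was at 0 in both. Of 6 tested neutrophil markers 4 rose and 1 fell in HOXA9_KO (median 1.22), with CXCR2 going from 9.44 to 27.5 CPM (1.55 ± 0.07). In SAFB_KO 2 of 6 rose and 1 fell (0.49), and in MEIS1_KO 2 of 5 rose and 2 fell (0.28). The part of any change in cell make-up in the granule gene results was not tested.

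**Figure D4:**
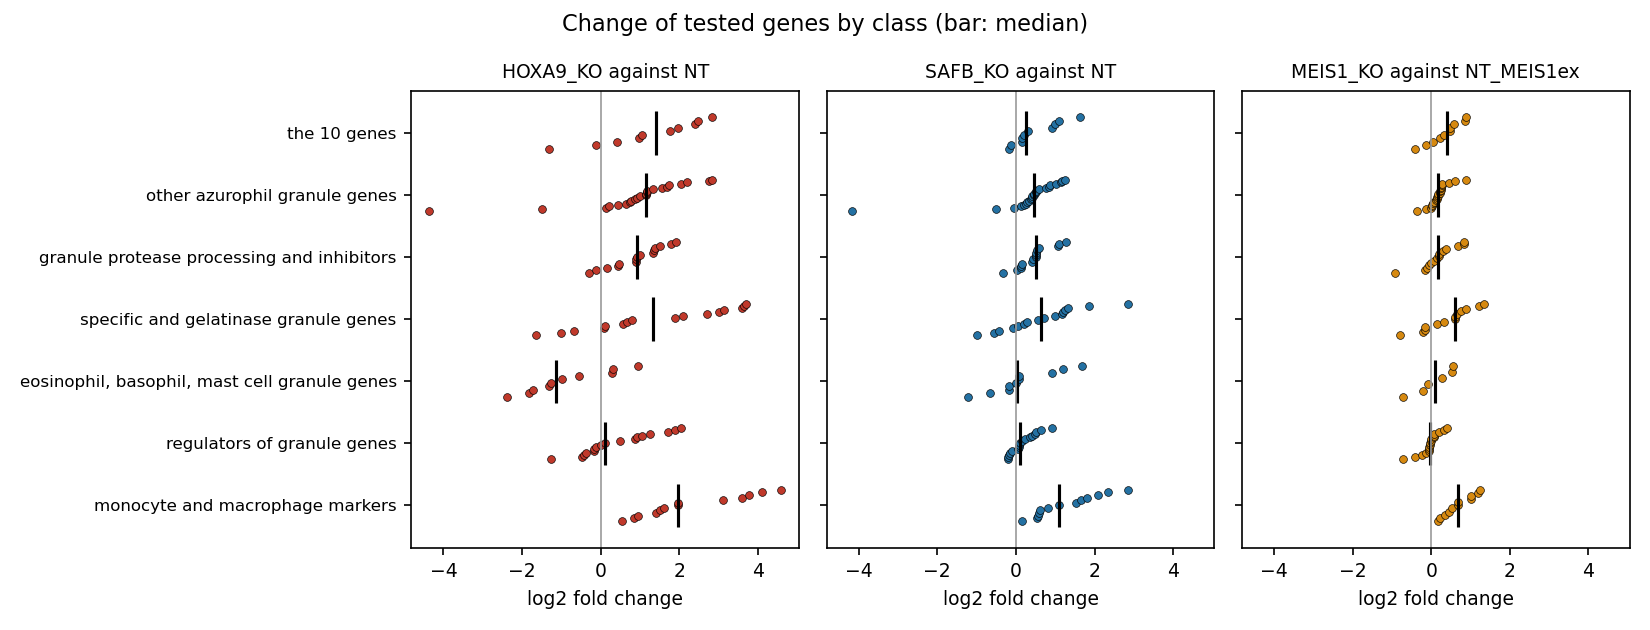
Log2 fold change (x) of every tested gene (points) by gene class (y) in each knockout against its own controls, with the class median as a bar; genes of the set of 10 are plotted only in the top row. In HOXA9_KO the medians are 1.41 for the 10 genes, 1.14 for other azurophil granule genes and -1.12 for eosinophil, basophil and mast cell granule genes.

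On chromosome 19 (GRCh38), AZU1, PRTN3 and ELANE lie in that order within a stretch shared with CFD, the complement protease factor D. Their annotated gene spans are chr19:825097-832018 for AZU1, chr19:840960-848175 for PRTN3 and chr19:851014-856247 for ELANE, all on the + strand. In HOXA9_KO, CFD rose by 0.76 ± 0.04, ELANE by 0.97 and PRTN3 by 1.06, AZU1 fell by 0.12, and PLPPR3, 3.12 kb before AZU1, rose by 0.27 ± 0.05. Farther along, MED16, R3HDM4 and ARID3A rose by 0.48 ± 0.06, 0.40 ± 0.06 and 0.34 ± 0.04, while PRSS57 on the other side fell by 1.49. These are only some of the tested genes within 200 kb, picked after their values were seen. Other genes on the PRSS57 side fell or were not called. Genes beyond ARID3A rose by up to 0.71 ± 0.06 or were not called. CFD rose by 0.32 ± 0.04 in SAFB_KO and was not called in MEIS1_KO (-0.16 ± 0.34). The longest run of bases that the longest coding transcripts of these paralogs share was 25 for ELANE and PRTN3, 15 for PRTN3 and AZU1 and 12 for ELANE and AZU1, each shorter than the reads of 150 bases.

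**Figure D5:**
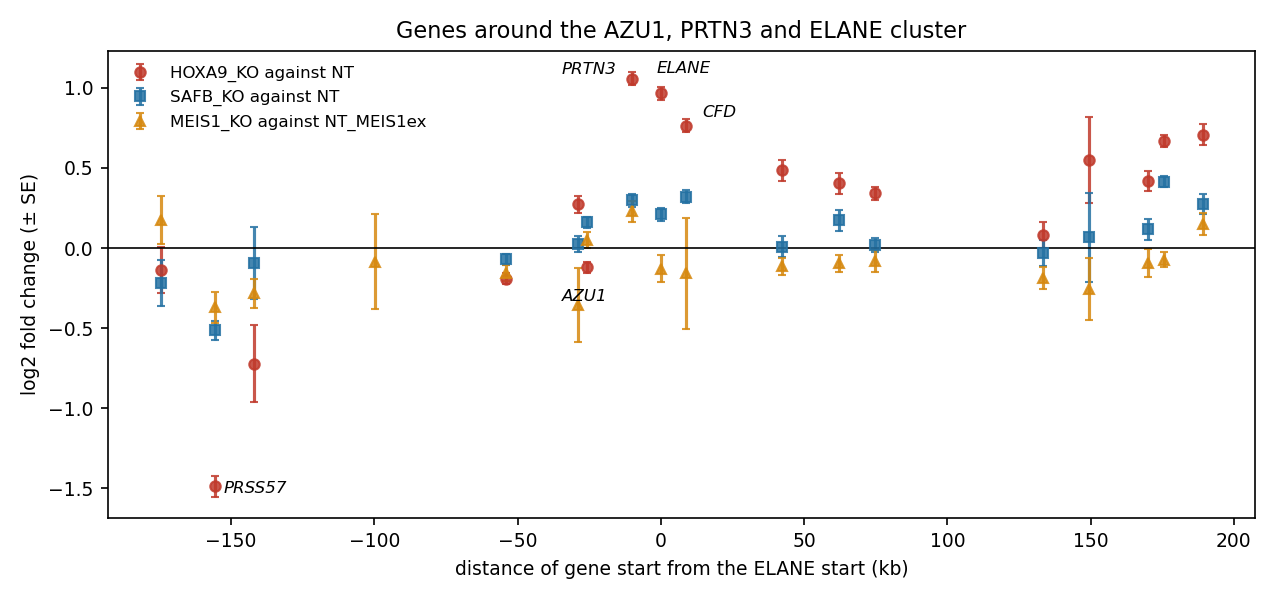
Log2 fold change with its SE (y) of tested protein-coding genes within 200 kb of the ELANE start (x, distance of each gene's start in kb) in the 3 knockouts. In HOXA9_KO the changes run from -1.49 at PRSS57 through -0.12 at AZU1 to 1.06 at PRTN3 and 0.76 at CFD.

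The other members' nearest tested neighbours changed in both directions in HOXA9_KO. LYZ (chr12:69348341-69354234) rose by 2.84 in HOXA9_KO between CPSF6 (-0.26 ± 0.04) and YEATS4 (-0.39 ± 0.07). MPO (chr17:58269856-58280935, - strand) lies 1.34 kb from LPO, the lactoperoxidase gene, which rose by 0.22 ± 0.09 in HOXA9_KO (adjusted p 0.0438; -0.04 when scaled to nuclear protein-coding genes), a call lost when any 1 of the 6 libraries was left out, and fell by 0.60 ± 0.10 in SAFB_KO. On its other side TSPOAP1 rose by 0.55 ± 0.03 in HOXA9_KO and by 0.62 ± 0.06 in MEIS1_KO. MS4A3 (chr11:60056587-60071128) was accompanied by MS4A6A of the same family, which rose in all 3 knockouts (1.09 ± 0.03, 0.67 ± 0.03 and 0.51 ± 0.05). RNASE2 (chr14:20955452-20956436) lies between RNASE3, which rose by 0.95 in HOXA9_KO, and METTL17, which fell by 0.47 ± 0.05; the transcripts of RNASE2 and RNASE3 share a run of 67 bases, also shorter than the reads. VPS26A, next to SRGN, rose by 0.55 ± 0.13 (adjusted p 0.00847), a call lost under the nuclear protein-coding scaling. CTSG lies on chr14:24573522-24576260, SRGN on chr10:69088106-69104811 and PLAC8 on chr4:83090048-83137075.

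Some genes elsewhere had nearly the same 3 knockout changes as a member. Likeness was the Euclidean distance over the 3 log2 changes among 10466 protein-coding genes with at least 2 CPM in each experiment. How close the nearest gene lies for genes at large was not measured, so a small distance by itself is not read as a result. LIPA, lysosomal acid lipase, was nearest to SRGN (distance 0.09), with changes of 2.03, 1.05 and 0.50 in HOXA9_KO, SAFB_KO and MEIS1_KO. THBD, thrombomodulin, was nearest to LYZ (0.17; changes 2.84, 1.76 and 0.74), FCER1G, the Fc receptor gamma chain, to MS4A3 (0.22; changes 2.30, 1.17 and 0.71) and TMEM170B to PLAC8 (0.06; changes 1.75, 0.89 and 0.43). ATP6V0C was nearest to ELANE (0.04), RIT1 to PRTN3 (0.05), TRAF3IP1 to AZU1 (0.03), CRYBG3 to RNASE2 (0.03) and the histone gene H4C1 to CTSG (0.15). MPO had the most distant nearest gene, MYBPH at 0.56.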

How the data were processed

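Total RNA of MOLM13 cells was depleted of ribosomal RNA and sequenced from directional libraries as read pairs of 150 bases, per the labels' protocols. The submitters' processing notes name the build hg38, HTSeq 1.99.2, STAR 2.7.10a, Trim Galore and bedtools; for annotation release and strand setting, neither is stated in these sources. The authors deposited 1 file of raw read counts per gene for each of 17 libraries. Rows that name no gene were left out of library sizes; reads outside genes are given in the report as a share. GENCODE 29, in which 57895 of 58278 identifiers were found, gave symbols, coordinates and exon lengths.

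The first experiment (9 libraries) and the MEIS1 experiment (8) were fitted separately with edgeR 4.0.16 (R 4.3.3): filterByExpr (minimum count 10, minimum total 15), TMM factors and the robust quasi-likelihood F test with Benjamini-Hochberg adjustment. Differences between effects came from a fit of all 17 libraries. CPM was scaled within an experiment. SE is the log2 change divided by the root of F. The fits were tested on simulated data. Alternatives were RLE factors, other filters, scaling to nuclear protein-coding genes, DESeq2 1.42.0, limma 3.58.1 (voom), a replicate block, fewer or more groups in the fit, a 2-fold rule and leaving out each library.

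Named genes were the 10 members, the 3 targeted genes and up to 6 called genes per list with the smallest p. The nearest tested protein-coding gene on each side of a member and the gene nearest in pattern were also named. PRSS57, LAMP3, CTSC, RUNX1, MYB and the chromosome 19 genes MED16, R3HDM4 and ARID3A were added after their values were seen. Marker genes given as having no count were also picked after their values were seen. Members and lists were chosen with earlier results of these data known.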

Additional observations from a re-analysis of the deposited data

Results flagged for a closer look

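ELANE in MEIS1_KO had 1 library far below the other 3, at 519 CPM, while the others lay between 684 and 711 CPM. CTSG in MEIS1_KO likewise had a lowest library of 85.6 CPM, apart from the other 3 at 93.9 to 95.1 CPM. Of 20 such checks (10 genes in the 2 groups of 4 libraries), chance flags about 1 in 20.

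MPO rose in HOXA9_KO and fell slightly in SAFB_KO, a log2 difference between the knockouts of 2.65 (adjusted p 5.16e-37, edgeR quasi-likelihood test). AZU1 fell slightly in HOXA9_KO and rose slightly in SAFB_KO, a log2 difference of -0.28 (adjusted p 5.77e-09). MPO also fell slightly in SAFB_KO but rose in MEIS1_KO, and the difference of these effects was -0.75 (adjusted p 0.00172). The fall of MPO in SAFB_KO and that of AZU1 in HOXA9_KO lost their own calls in some settings, as given above.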

How the results depend on the processing

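Over the alternatives, the values for the 10 genes kept their direction and side of the threshold in 953 cases, lost a call in 22, gained one in 22 and reversed in 3. The reversals all came from scaling to nuclear protein-coding genes and were uncalled before: RNASE2 in the difference of the HOXA9_KO and MEIS1_KO effects (-0.18), and PRTN3 (-0.094) and AZU1 (-0.056) in that of the SAFB_KO and MEIS1_KO effects. Among other named genes 3 values reversed: CPOX (-0.0601) and LPO (-0.035) in HOXA9_KO under that scaling, and SAFB in MEIS1_KO without NT_MEIS1ex replicate 1 (leaving out single libraries gave -0.12 to 0.029). The cause was not tested.

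Members that fell in HOXA9_KO numbered 2, but 1 with DESeq2, and 1 to 2 when single libraries were left out. Members that fell in SAFB_KO numbered 1, but 2 with the minimum of 2 CPM and with the nuclear scaling, 0 with only the compared groups in the fit, limma-voom or DESeq2, and 0 to 1 without single libraries. The count lower in the difference of the HOXA9_KO and MEIS1_KO effects was 1, but 2 with the minimum of 2 CPM and with the nuclear scaling, and 1 to 2 without single libraries. For the SAFB_KO and MEIS1_KO effects it was 1, but 2 with the nuclear scaling. A 2-fold rule left 2 of 8 called members in SAFB_KO and 0 of 8 in MEIS1_KO. Without single libraries, the members that rose numbered 8 in HOXA9_KO, 7 to 8 in SAFB_KO and 6 to 7 in MEIS1_KO, and those higher in the difference of the SAFB_KO and MEIS1_KO effects numbered 3 to 5.

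Replicate numbers did not pair the libraries: deviations of same-numbered libraries correlated at -0.079 to 0.11 in the first experiment and at -0.37 to 0.15 in the second. With the replicate number as a block, 8 members rose and 2 fell in HOXA9_KO, 8 rose and 1 fell in SAFB_KO, where RNASE2 became called (0.15, adjusted p 0.0422), and 7 rose and 1 fell in MEIS1_KO. The lowest member counts in single libraries were 268 for MS4A3 and 270 for CTSG. In HOXA9_KO the SE was largest for these 2 genes, 0.08 for CTSG and 0.07 for MS4A3. In MEIS1_KO it was 0.11 for MS4A3 and also for LYZ and MPO, and 0.06 for CTSG.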
